A study of Mus musculus with 6 samples.

Results

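The 2′-5′-oligoadenylate synthetase (OAS) family is followed here in primary mouse cortical astrocytes that expressed a mutant BRAF. Its members were taken by gene name from the expression table, which lists 55357 genes, and are the 8 genes Oas1a, Oas1b, Oas1c, Oas1g, Oas2, Oas3, Oasl1 and Oasl2. All 8 were in the table. The mRNA of 6 cultures was sequenced as poly(A)-selected bulk RNA-seq. The KE group comprised 3 cultures harvested 48 hours after they had received a plasmid in which the CMV promoter drives FLAG-tagged BRAF carrying K499E (BRAF KE), a variant found in RASopathy. In the NT group, 3 cultures received no plasmid. Both groups were astrocytes cultured from the cortex of C57BL/6 embryos at embryonic day 18, kept in a medium that, by the culture methods, contained HB-EGF, and no other allele is named. In the imaging experiments on such cultures the study added a GFP plasmid, and the sources used here do not say whether the KE cultures of the RNA-seq received it. The dishes were shaken before replating, and no sorting of astrocytes is described. KE and NT differ both in BRAF KE and in having been transfected, and these cannot be told apart here: RNA-seq of cultures given an empty plasmid or BRAF WT was not analysed here. CMV is a general promoter and selects no cell type. The sources used here do not say whether the 3 cultures of a group came from separate preparations, so p-values measure only the spread between these cultures.

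OAS proteins are interferon-induced sensors. On binding double-stranded RNA, the active members join ATP into short 2′-5′-linked oligoadenylates, the 2-5A messengers, which set off the decay of viral and cellular RNA. In the mouse, Oas1a, Oas1g, Oas2, Oas3 and Oasl2 are known as active synthetases, whereas Oas1b, Oas1c and Oasl1 lack the activity. OASL proteins carry a ubiquitin-like region after the OAS unit. In glia, as in other cells, the family is known mainly for limiting RNA viruses, and Oas1b is known as the mouse gene for resistance to flaviviruses.

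Values are normalized counts, which are gene counts after scaling each culture to a common level. Groups were compared by limma on log2(normalized count + 1) in the 15280 genes with a mean of at least 10, and a difference on that scale is given as log2FC, KE minus NT, with its standard error (SE). A gene was called changed at an adjusted p-value under 0.05. Approximate depth lay between 24490486 reads in KE replicate 2 and 34144741 reads in KE replicate 1. Braf was at 34933 to 40978 in KE and 811 to 946 in NT, in accordance with the labels. Of 10 astrocyte markers, 7 rose, Gja1 fell and Aqp4 and S100b were not called, and their summed level was 194523 to 200354 in KE and 142105 to 150693 in NT. Of 15 microglia and macrophage markers, all 15 fell, with a median log2FC of -3.31. Their summed level was 5553 to 7683 in KE and 46717 to 55159 in NT, and none was at 0 in all cultures. Of the oligodendrocyte lineage markers tested, 7 of 7 fell, while of 5 neuron markers 1 rose and 1 fell, and of 5 vascular and mesenchymal markers 1 rose and 2 fell. The cultures therefore held RNA of microglial genes in both groups, and its part in the results on the OAS family was not tested. In bulk RNA, fewer cells of a type and less RNA per cell cannot be told apart.

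All 8 OAS genes were higher in KE. Each had its 3 KE cultures above its 3 NT cultures and passed the test, and none fell. Over all genes tested, 25.3% were called higher in KE, 26% were called lower, and 30.1% had every KE culture above every NT culture. The log2FC of the members ran from 1.47 for Oas1c to 3.73 for Oasl1, with a median of 2.32 beside 0.0018 over all genes tested. With a log2FC over 1.5 required as well, 7 of the 8 members passed, Oas1c being just under it, against 2.26% of all genes tested. The count was 5 without NT replicate 3, where Oas2 and Oas3 also fell short (Oas3 at 1.43), 6 without KE replicate 2, and 8 without KE replicate 3 or without NT replicate 2. The microglia and macrophage markers fell while every member rose, and whether the 2 changes are linked was not tested.

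**Figure D1:**
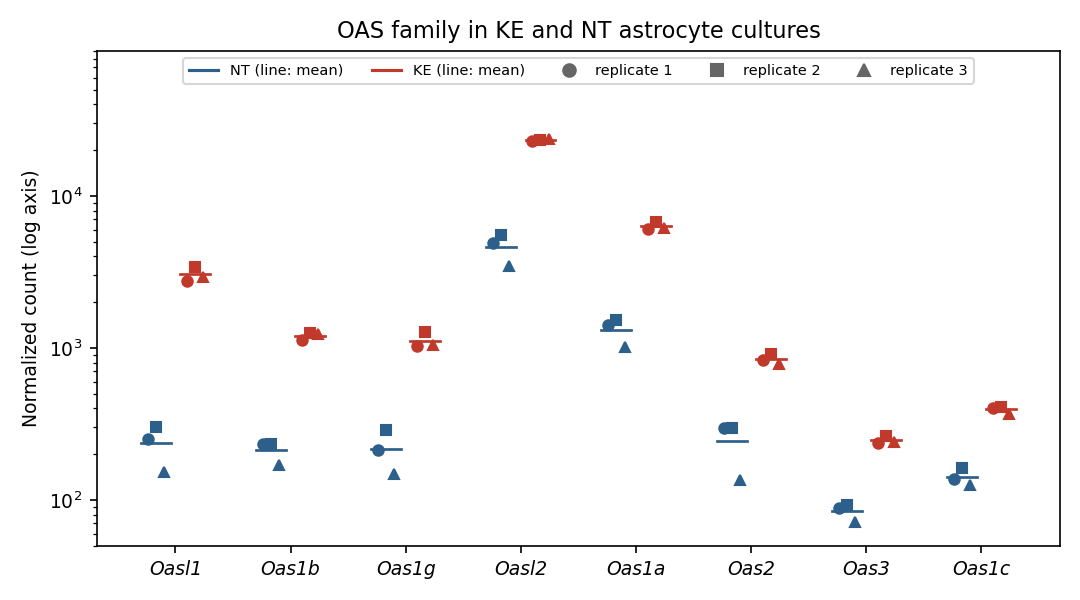
Normalized count of each OAS gene in each culture, on a log axis, in order of log2FC. Blue points are NT, red points are KE, symbols give the replicate number and lines the group mean. In every gene the 3 red points sit above the 3 blue points, and the gap is widest in Oasl1.

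The OAS1 genes are represented by 4 members. Oas1a (ENSMUSG00000052776), an active synthetase and by raw signal the highest of them, was at 6013, 6744 and 6138 in KE and 1416, 1516 and 1011 in NT. Its lowest KE culture was well above its highest NT culture. The means were 6299 ± 391 and 1314 ± 268 (SD, n = 3 each), 4.79-fold apart, with a log2FC of 2.28 (SE 0.125, limma adjusted p = 1.2e-07). Oas1g (ENSMUSG00000066861), the other active OAS1 gene, was at 1021, 1263 and 1041 in KE and 211, 289.6 and 148 in NT. It was 5.13-fold higher in KE, with a log2FC of 2.40 (SE 0.197, limma adjusted p = 2.4e-06).

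Oas1a and Oas1g could have exchanged reads. Their annotated coding sequences, 1101 bases each in GENCODE vM39, were identical at 1065 aligned positions, or 96.7%, and 60% of the distinct 31-base words in Oas1g transcripts also occur in Oas1a transcripts. Oas1b and Oas1c were further off, at 75.8% and 73.1% identity with Oas1a. The start of the coding sequence shows this. Its leading 54 bases, up to the nearest gap in any of the alignments with Oas1a, are given for the 4 genes, with every base that differs from Oas1a in capitals.

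Oas1a: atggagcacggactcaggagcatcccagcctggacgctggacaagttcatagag

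Oas1g: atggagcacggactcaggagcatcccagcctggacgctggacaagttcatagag

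Oas1b: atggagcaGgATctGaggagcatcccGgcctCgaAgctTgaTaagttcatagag

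Oas1c: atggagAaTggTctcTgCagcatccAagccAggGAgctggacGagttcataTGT

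Over this stretch Oas1g does not differ from Oas1a, Oas1b differs at 9 bases and Oas1c at 13. The division of reads between Oas1a and Oas1g is therefore uncertain, and their sum does not depend on it. Summed, they were at 7034, 8008 and 7179 in KE and 1627, 1806 and 1159 in NT, 4.84-fold apart and again without overlap, with a difference of 2.30 on the log2 scale.

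Oas1b (ENSMUSG00000029605) does not encode a full-length protein in the reference strain. GENCODE marks its canonical transcript as loss of function and RefSeq lists the gene as a transcribed pseudogene. A count of stop codons in the annotated frame found 1 in Oas1b, at codon 253 of 376, and 0 in the frames of the other 7 members. Its RNA was nonetheless measured at 1125, 1251 and 1229.6 in KE and 232, 233 and 169.6 in NT, with tight groups far apart. The difference was 5.68-fold, with a log2FC of 2.51 (SE 0.124, limma adjusted p = 5.7e-08), the highest log2FC of the 4 OAS1 genes. Only 3.26% of its 31-base words occur in another OAS gene, so it shares little transcript sequence with its paralogues.

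Oas1c (ENSMUSG00000001166), which lacks synthetase activity, changed least among the members. It was at 402, 409.8 and 369 in KE and 138, 163 and 125 in NT, without overlap. The difference was 2.78-fold, with a log2FC of 1.47 (SE 0.126, limma adjusted p = 3.2e-06). Of its 31-base words, 20.7% occur in another OAS gene, most often in Oas1e, which was listed at 0 in all 6 cultures.

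Oas2 and Oas3 are the larger synthetases, built from repeated OAS units, and Oas3 favours long double-stranded RNA. Oas2 (ENSMUSG00000032690) was at 826, 918 and 779 in KE and 296, 296 and 135 in NT. The groups did not overlap, but NT replicate 3 lay far below the other NT cultures. The difference was 3.47-fold, with a log2FC of 1.87 (SE 0.245, limma adjusted p = 8.5e-05), which is the largest SE among the members. Without NT replicate 3 the log2FC of Oas2 was 1.4996, just under the cutoff of 1.5. Oas3 (ENSMUSG00000032661), the member with the lowest values, was at 236, 265 and 240.0 in KE and 88.8, 93.0 and 71.3 in NT. It was 2.93-fold higher in KE, with a log2FC of 1.55 (SE 0.146, limma adjusted p = 7.0e-06). Neither gene shares a 31-base word with another OAS gene.

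The OASL genes gave both the largest log2FC and the highest values of the family. Oasl1 (ENSMUSG00000041827), which makes no 2-5A and is known to hold back translation of the transcription factor IRF7, was at 2755, 3418 and 2942 in KE and 253, 299.8 and 154 in NT. Its means of 3038 ± 342 and 235 ± 74.7 (SD, n = 3 each) were 12.9-fold apart, with a log2FC of 3.73 (SE 0.196, limma adjusted p = 8.5e-08). It ranked 40th from the top by log2FC among all genes tested, and the next member, Oas1b, ranked 120th. Oasl2 (ENSMUSG00000029561), which keeps synthetase activity in the mouse, was at 23006, 23179.7 and 23484 in KE and 4882, 5557 and 3469 in NT. Its KE cultures lay within a coefficient of variation of 1.04%, the narrowest of any member in either group. It was 5.01-fold higher in KE, with a log2FC of 2.35 (SE 0.132, limma adjusted p = 1.4e-07). The coding sequences of Oasl1 and Oasl2 are 59.3% identical, and at most 0.108% of their 31-base words occur in another OAS gene.

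Whether members changed to different extents was examined within cultures, as the difference in log2 value between each member and the next in the order of log2FC, over 7 pairs. Oasl1 exceeded Oas1b by 1.26 to 1.45 in KE and by -0.14 to 0.36 in NT. These ranges did not overlap, and the difference between groups was 1.22. In a two-sided exact permutation test p was 0.1 (adjusted p = 0.42 over the 7 pairs). That is the smallest p this test can give with 3 against 3 cultures, so it cannot reach 0.05. The other 6 pairs, with differences between 0.047 and 0.41, overlapped between groups (exact permutation p 0.2 to 0.6). Judged by this overlap, the members from Oas1b down to Oas1c were not ordered against their neighbours by log2FC beyond the spread between cultures. The permutation p-values decide nothing here, since no pair could reach 0.05.

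**Figure D2:**
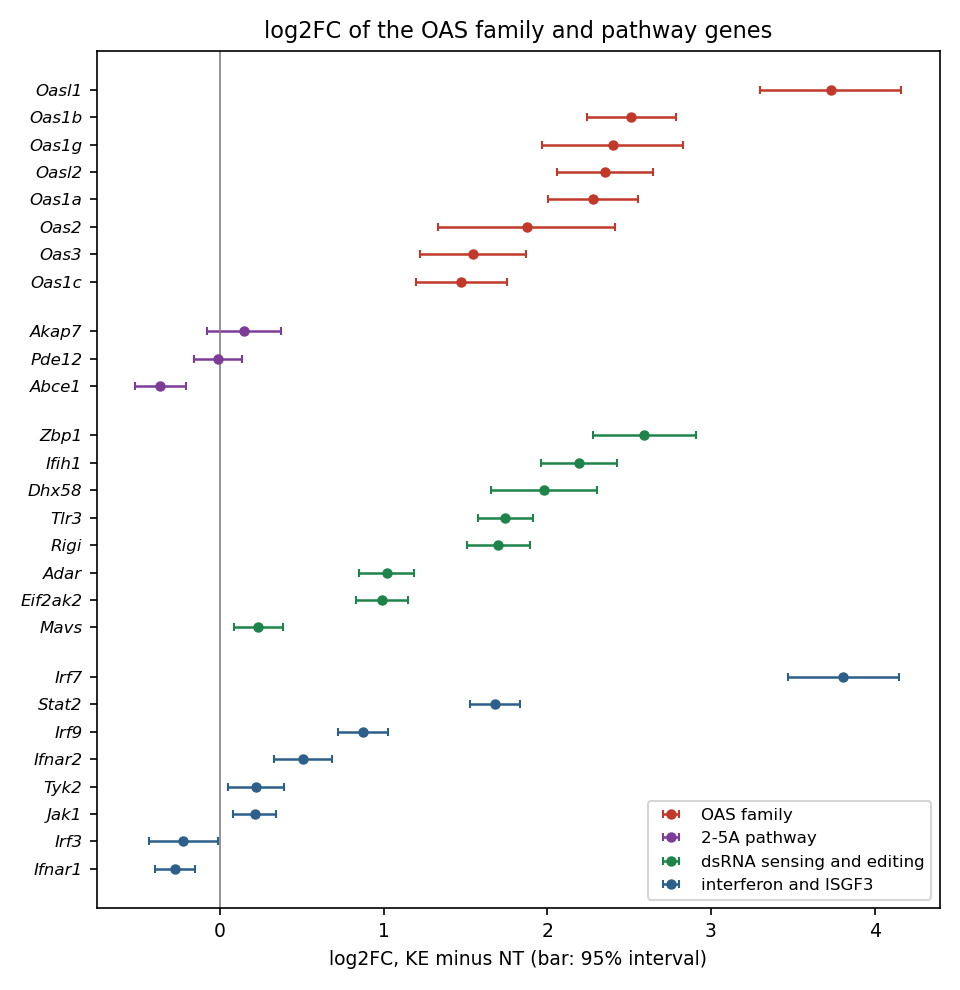
log2FC, KE minus NT, of the OAS genes and of the genes of 3 related lists, with bars for the 95% interval of limma. The OAS genes lie between 1.47 and 3.73, the genes of the 2-5A pathway between -0.36 and 0.15, and the double-stranded RNA sensors lie between 0.23 and 2.59. Ifnb1 is left out because it was listed at 0 in NT, and calls use adjusted p-values, so Irf3 was not called although its interval leaves out 0.

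Levels of different genes were compared per kb of gene length. With the length of all annotated exons, the KE level per kb was 3643 ± 37.9 for Oasl2, 1163 ± 131 for Oasl1, 788 ± 49.0 for Oas1a, 603 ± 33.9 for Oas1b, 460.4 ± 55.9 for Oas1g, 188 ± 15.8 for Oas2, 164 ± 8.86 for Oas1c and 34.9 ± 2.18 for Oas3 (SD, n = 3 each). No neighbours in this order overlapped between cultures. In NT, Oasl2 again came highest at 727 ± 167, Oas1a came next at 165 ± 33.5, and Oas3 came last at 11.9 ± 1.63 (SD, n = 3 each). Between them, Oas1b, Oasl1, Oas1g, Oas1c and Oas2 lay at 54.3 to 106 per kb, and each of these overlapped the next. Oasl1 thus moved from the group of overlapping genes in NT to the level per kb below Oasl2 in KE.

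That order depends on the length chosen. Oas1a has 7989 bases of annotated exons but a canonical transcript of 1911 bases. Per kb of canonical transcript, Oas1a came to 3296 in KE and Oasl1 to 1375, and per kb of coding sequence to 5721 and 1982, so Oas1a then stood above Oasl1. Oasl2 was the highest and Oas3 the lowest in both groups with each of the 3 lengths. Summed over the 8 members per kb of exons, the family was at 6791, 7355 and 6990 in KE and 1380.2, 1561 and 968 in NT.

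**Figure D3:**
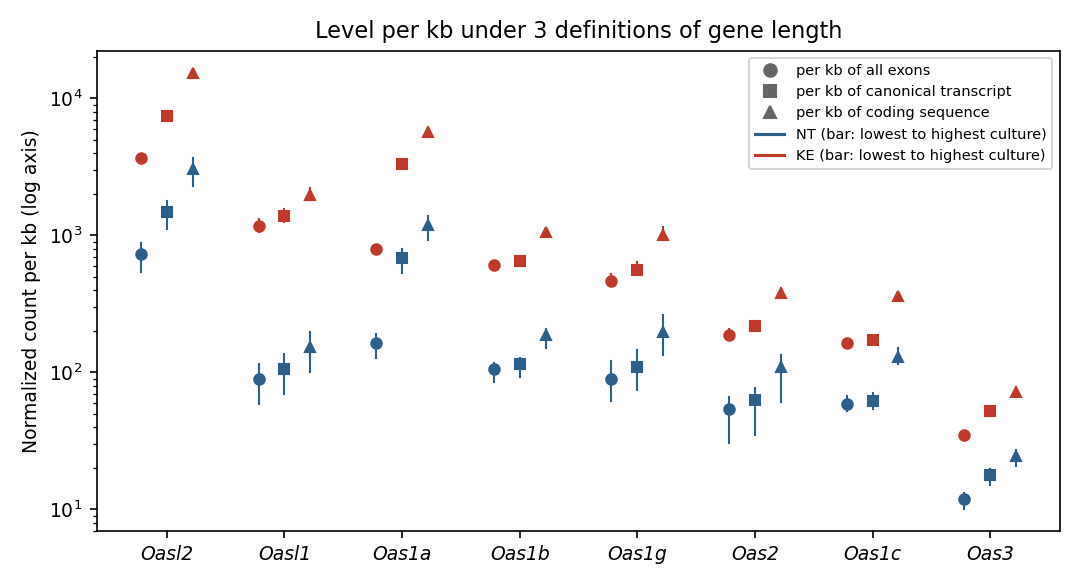
Normalized count per kb of each OAS gene on a log axis, with NT in blue and KE in red, for 3 definitions of gene length (symbols). Points are means of 3 cultures and bars run from the lowest to the highest culture. Oasl2 is highest and Oas3 lowest throughout, while Oas1a moves above Oasl1 when the canonical transcript or the coding sequence is used.

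The members moved together within groups. NT replicate 3 was the lowest NT culture for all 8 members, whereas it was the lowest in 32% of all genes tested. It reached 45.7% of the mean of NT replicates 1 and 2 for Oas2, 55.6% for Oasl1, 59.0% for Oas1g, 66.5% for Oasl2, 69.0% for Oas1a, 73.0% for Oas1b, 78.4% for Oas3 and 83.0% for Oas1c. The summed level of the microglia and macrophage markers in NT replicate 3 was 0.856 of the mean of the other NT cultures, and that of the astrocyte markers 1.06. For the 8 listed genes of double-stranded RNA sensing and editing it was 0.843. A low NT replicate 3 was therefore not particular to the OAS family. Without NT replicate 3, all 8 members still passed the test, with log2FC from 1.39 for Oas1c to 3.45 for Oasl1. In KE, replicate 2 was the highest culture for 7 members, Oasl2 being the exception, against 38% of all genes tested.

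Relative to the group mean, though not always as an SD, the spread was smaller in KE than in NT for every member. The coefficient of variation ran from 1.04% for Oasl2 to 12.1% for Oas1g in KE and from 13.6% for Oas1c and Oas3 to 38.3% for Oas2 in NT. With group means removed, Pearson's r between the log2 values of 2 members over the 6 cultures was between 0.674 and 0.995, with a median of 0.95 over the 28 pairs. These values share libraries, NT replicate 3 is low in all of them, and they are given as a description.

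**Figure D4:**
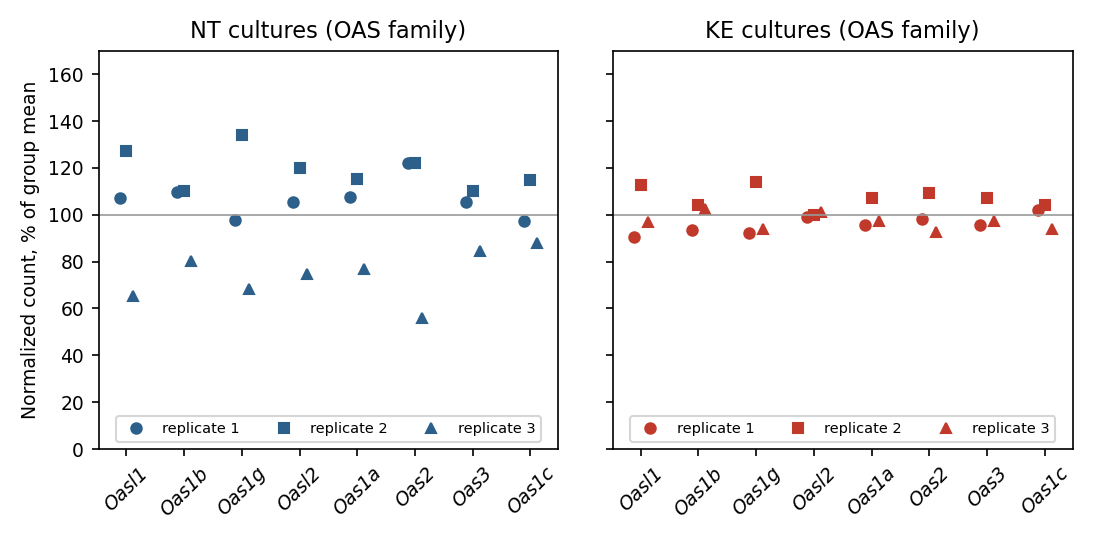
Normalized count of each OAS gene in each culture as a percentage of the mean of its group, for NT in blue and KE in red. Symbols give the replicate number. NT replicate 3 (triangles) is lowest of the NT points for every gene. Taken as a coefficient of variation, the spread around 100% is smaller in KE than in NT for every gene, though not for every single point.

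Genes outside the family were ranked by Pearson's r between their log2 value and the mean log2 value of the 8 members over the 6 cultures. Among 12064 candidates with a mean of at least 100, the 5 with the highest r were Lgals3bp, Lrrfip2, Lgals9, Zbp1 and Plbd2, with r between 0.9995 and 0.9996. The KE and NT cultures form separate clusters, so r mostly reflects the group difference. The log2FC was 2.59 for Zbp1, a sensor of Z-form nucleic acids, 1.63 for Lgals9 and 1.41 for Lgals3bp, both galectin-related genes, and 0.64 and 0.52 for Plbd2 and Lrrfip2.

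The 8 members lie in 2 clusters on chromosome 5. On GRCm39, Oasl2 (chr5:115034997-115050295) and Oasl1 (chr5:115061294-115075974) are both on the plus strand with 10998 bases between them, and span 40978 bases in all. The other 6 span 178052 bases. Oas2 (chr5:120868398-120887933), Oas3 (chr5:120891163-120915729), Oas1c (chr5:120938259-120950579), Oas1g (chr5:121014205-121025676) and Oas1a (chr5:121031070-121046449) are on the minus strand. Oas1b (chr5:120950700-120962228) is on the plus strand. Oas1c and Oas1b start back to back, with 120 bases between the genes, and their log2FC were 1.47 and 2.51.

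Genes lying beside the family were called higher about as often as genes in general. Within 250 kb of a member, 51 other genes are annotated and 23 had a mean of at least 10. Of these, 7 were higher in KE, 2 were lower and 14 were not called, with a median log2FC of 0.16, and 0 were called higher with a log2FC over 1.5. The shares were 30.4% higher and 8.7% lower, beside 25.3% and 26% over all genes tested, and a log2FC over 1.5 was reached by 2.26% of all genes. Near the OASL genes, Cabp1 had a log2FC of 1.14 (limma adjusted p = 0.042), the long noncoding RNA Gm9936 1.04 (limma adjusted p = 0.0496), and 1500011B03Rik and 2210016L21Rik 0.36 each. Near the other cluster, the ubiquitin ligase gene Dtx1, 17519 bases from Oas2, had a log2FC of 0.69 (limma adjusted p = 6.4e-05), and Plbd2, 226704 bases from Oas2, 0.64 (limma adjusted p = 8.3e-06). The count of higher neighbours was 3 to 6 when a culture was left out, and Cabp1 and Gm9936 were near the threshold. Every member had a higher log2FC than every neighbour tested.

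**Figure D5:**
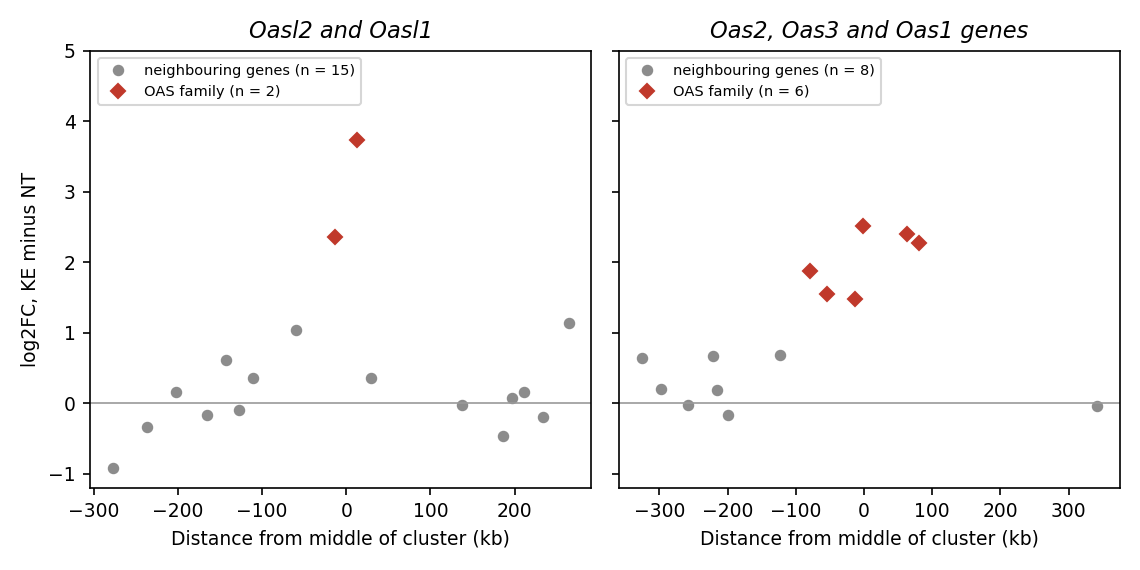
log2FC, KE minus NT, of the OAS genes (red diamonds) and of the neighbouring genes tested (grey points) against distance in kb from the middle of each OAS cluster. The diamonds lie at 1.47 and above, and the grey points at 1.14 and below.

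Promoter windows of 300 bases, from 250 before to 50 after the RefSeq start (GRCm38.p6), were searched for the motifs of the interferon-activated factors. The ISRE, which ISGF3 and IRF factors bind, was searched on both strands as GAAA, any 2 bases, then GAAA, and occurs in 3.44% of 32851 promoter windows. The GAS, bound by factors that interferon gamma activates, was searched on both strands as TTCNNNGAA and occurs in 8.3%. A window was found for 6 members and not for Oas1b and Oas2. Of the 6, Oas1a, Oas1g, Oas1c and Oas3 held an ISRE and Oasl1 and Oasl2 held none, while Oas1a held the only GAS. The 250 bases before the start were 82.8% identical between Oas1a and Oas1g, so these windows are not independent cases. The stretches around the ISRE matches are shown because 3 of them hold the same letters. They are given on the minus strand with the matches in capitals.

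Oas1a, chr5:120907526-120907585: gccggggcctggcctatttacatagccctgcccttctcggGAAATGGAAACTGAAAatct

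Oas1g, chr5:120887614-120887671: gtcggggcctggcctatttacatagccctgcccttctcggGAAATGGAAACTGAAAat

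Oas1c, chr5:120812541-120812634: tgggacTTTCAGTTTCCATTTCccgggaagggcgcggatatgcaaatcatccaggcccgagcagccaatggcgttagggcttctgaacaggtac

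Oas3, chr5:120777700-120777774: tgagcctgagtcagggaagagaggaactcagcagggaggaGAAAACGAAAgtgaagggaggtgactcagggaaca

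In Oas1a and Oas1g, 2 overlapping ISRE matches form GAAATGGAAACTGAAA, which begins 20 and 18 bases before the start and ends just upstream of it. The same 16 bases lie on the other strand of the Oas1c stretch. That stretch is the 94 bases between the RefSeq gene records of Oas1c and Oas1b on GRCm38.p6. The Oas1c record begins 26 bases upstream of the start used for its window. The run ends 6 bases short of the start of Oas1b, in the reading direction of Oas1b. It occurs in 7 of the 32851 windows, or 0.0213%. Besides the 3 OAS windows these are windows of Apol9a and Apol9b, whose log2FC were 2.72 and 2.60. The run was taken from Oas1a, and Apol9a and Apol9b were looked up after their windows were seen. Whether the run goes with a higher log2FC was not tested. Oas1a, Oas1g and Oas1c share this run and had log2FC of 2.28, 2.40 and 1.47. Oasl1, with the largest log2FC, had no match to these letters in its window, which says nothing of other letters or of sequence further off. The matches describe sequence, and binding was not measured.

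Of the genes listed under the 2-5A pathway, 3 are given here, of which 0 rose, Abce1 fell, and Pde12 and Akap7 were not called. Among all genes tested, 25.3% were called higher and 26% lower. Abce1, known as a factor that recycles ribosomes, was at 5914, 5301 and 5806 in KE and 7937, 6774 and 7213 in NT, with a log2FC of -0.36 (limma adjusted p = 0.0012). Pde12, a phosphodiesterase that degrades 2-5A, had means of 977 ± 12.5 in KE and 984 ± 32.6 in NT (SD, n = 3 each), with a 95% interval of the log2FC from -0.16 to 0.14. Akap7, which carries a domain able to cleave 2-5A, had a log2FC of 0.15 with a 95% interval from -0.08 to 0.37 (limma adjusted p = 0.25).

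Other genes of double-stranded RNA sensing and editing rose with the OAS family. All 8 of the 8 listed were called higher, beside 25.3% of all genes tested, with a median log2FC of 1.72. Without NT replicate 1 the count was 7, since Mavs was no longer called (limma adjusted p = 0.054). Ifih1, which encodes the long double-stranded RNA sensor MDA5, was at 6217, 5981 and 6676 in KE and 1477, 1552 and 1125 in NT, a log2FC of 2.20 (limma adjusted p = 4.8e-08). The log2FC was 2.59 for Zbp1, 1.98 for Dhx58 (LGP2), 1.74 for Tlr3, 1.70 for Rigi, 1.02 for the RNA editor Adar, 0.99 for Eif2ak2 (PKR) and 0.23 for the adaptor Mavs.

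Of 9 genes of interferon induction and ISGF3 signalling, the pathway that induces OAS genes, 7 rose, Ifnar1 fell and Irf3 was not called. Over all genes tested, 25.3% were called higher and 26% lower, and the log2FC of some of the 7 were small. Tyk2 was no longer called without KE replicate 1, KE replicate 2, NT replicate 1 or NT replicate 3 (limma adjusted p up to 0.11). It was also not called when limma was run without its variance trend (limma adjusted p = 0.0503). Irf3 was called lower without KE replicate 2 (limma adjusted p = 0.014). Ifnb1, which encodes interferon beta, was at 233, 198 and 235 in KE and was listed at 0 in all 3 NT cultures, so no fold is given. Irf7, the factor whose translation Oasl1 is known to limit, was at 21714, 24490.2 and 22212 in KE and 1661, 2123 and 1215 in NT. Its log2FC of 3.81 (limma adjusted p = 1.8e-08) was close to that of Oasl1, and NT replicate 3 was again its lowest NT culture. The ISGF3 subunits Stat2 and Irf9 had log2FC of 1.68 and 0.87. Ifnar2, Tyk2 and Jak1 had log2FC of 0.51, 0.22 and 0.21, and Ifnar1 and Irf3 of -0.27 and -0.22.

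The remaining mouse OAS genes were nearly silent, and none reached the mean of 10. Oas1e and Oas1h were listed at 0 in all 6 cultures, and Oas1f did not exceed 3.75 in any. Oas1d was at 13.6, 13.8 and 18.1 in KE and 0.990, 1.03 and 0.954 in NT. Its 3 KE values lay above its 3 NT values, but at this level they were left out of the limma test and no fold is given. Oas1d lies on the opposite strand to Oas1a and overlaps it over 15380 bases on GRCm39. The library kit keeps strand, but the sources used here do not state the strand setting of the counting, so it is not known whether reads of the 2 genes were told apart.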

How the data were processed

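Bulk poly(A) RNA-seq of 3 KE and 3 NT astrocyte cultures was used, with every culture kept. The authors deposited a normalized signal per gene and culture: Salmon gene counts divided by DESeq2 size factors. The methods name TrimGalore, STAR and GENCODE on GRCm39, whereas the submitters' processing notes name GRCh38. Division by size factors removes depth and rests on most genes being unchanged. Approximate depth was each total divided by its most frequent low value. Within 0.1 of a whole read lay 77.5% of low values or less, and 95% was required to recover reads. No count test is therefore reported, and the error of each value is the spread over cultures.

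The members, gene lists and tests were chosen with earlier results of these data known. log2(normalized count + 1) was compared with limma 3.58.1 in R 4.3.3 (variance trend, group as the only factor, two-sided) in genes with a mean of at least 10, with Benjamini-Hochberg adjustment over the 15280 genes. The code was tested on simulated data. Pairs of members were compared by exact permutation over cultures. Genes named are the members, the genes of the 4 pathway lists (values of some are not reported here), Braf, up to 6 called neighbours by absolute log2FC and the 5 genes most like the members. Apol9a and Apol9b were named after their windows were seen. Gene positions and lengths came from GENCODE vM39 (GRCm39), promoters from RefSeq (GRCm38.p6), and alignments from Biopython 1.88. Coding sequences were compared in place of proteins. Alternatives were pseudocounts of 0.5 and 5, no filter or a mean of at least 50, quantile or 75th percentile scaling, no variance trend, the replicate number as a block, a log2FC cutoff of 1, other gene lengths, and leaving out each culture in turn. The length of the canonical transcript was added after the data were seen.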

Additional observations from a re-analysis of the deposited data

How the results depend on the processing

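All 8 members were called higher in KE in each of the 14 alternative settings of the test, with the largest change in Oas2, whose log2FC ran from 1.4996 to 2.06 (largest limma adjusted p = 0.0051). In the order by log2FC, the difference between Oas1b and Oas1g ran from -0.044 to 0.212 when a culture was left out, turning sign without NT replicate 2, and that between Oas1g and Oasl2 from -0.052 to 0.139, turning sign without KE replicate 2 (-0.052) and without NT replicate 3 (-0.0043). The cause was not tested. Other gene lengths divide the same values by another number. Per kb of canonical transcript, the KE level was 3296 for Oas1a, 654 for Oas1b, 561 for Oas1g, 216 for Oas2, 52.3 for Oas3, 1375 for Oasl1 and 7436 for Oasl2. Per kb of coding sequence it was 5721 for Oas1a, 1066 for Oas1b, 362 for Oas1c, 1007 for Oas1g, 378 for Oas2, 72.4 for Oas3, 1982 for Oasl1 and 15238 for Oasl2.

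Genes higher by a log2FC over 1.5 numbered 346, and 724 with a cutoff of 1, 209 with a mean of at least 50 and 594 with no filter on low genes, and lower genes numbered 525, 870 with a cutoff of 1 and 788 with no filter, since a filter sets which low genes are tested. Higher neighbours numbered 7, and 4 without the variance trend, 4 with no filter and 3 to 6 with a culture left out, the fewest without KE replicate 2 and without NT replicate 1. Lower neighbours numbered 2 to 4, with 4 without KE replicate 2. With no filter, 1 of the other OAS genes was called higher. The interferon list had 1 lower gene, and 1 to 2 with a culture left out, with 2 without KE replicate 2, where Irf3 was called. The causes were not tested. Same-numbered cultures correlated at 0.059 to 0.066 after group means were removed, and differently numbered ones at -0.050 to -0.010. The main fit did not take the numbers to pair the cultures, and these values do not settle whether they do. With the replicate number as a block, all 8 members were again called higher, and the interferon list had 2 lower genes. Low genes such as Oas1d are the ones that depth limits here.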
